A study of Mus musculus with 20 samples.

Results

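The mRNAs of the tricarboxylic acid (TCA) cycle enzymes apart from aconitase were followed across 5 mouse tissues, in RNA recovered with iron regulatory protein 1 (IRP1) and in matched control reactions. The genes were Cs, Idh3a, Idh3b, Idh3g, Ogdh, Dlst, Suclg1, Sucla2, Fh1 and Mdh2. Every probe set annotated to 1 of these symbols was taken, which gave 25 probe sets for 10 genes, of 45037 probe sets on the array other than Affymetrix's own controls. Probe sets with exactly 1 symbol covered 18193 genes in all, and no probe set with several symbols included any of the 10.

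The study asked which mRNAs IRP1 binds. Total RNA of 4 to 6 C57BL6/J mice, females and males mixed, was pooled for each tissue, and 50 µg was combined with purified recombinant His-tagged IRP1 made in bacteria and a rabbit antibody to IRP1. The protocol describes control reactions without the recombinant protein, and these are identified here by their titles, although the source labels of all 20 samples name recombinant IRP1. There were 2 IRP1 and 2 control reactions for each tissue, 20 arrays in 10 groups. Duodenum, liver and spleen came from mice on a diet with less than 10 mg iron per kg for 21 days from weaning. The other 2 tissues, bone marrow and brain, were from animals of 8 to 10 weeks on an iron-normal diet, with 6 mice pooled. Diet and age therefore cannot be told apart from tissue. Because the RNA of a tissue was pooled, a p-value here measures the spread between reactions and arrays and not between mice. About 120 ng of recovered RNA was amplified in 2 cycles for each array. An array reads equal amounts of recovered RNA, so a level is relative to the other RNA in the same reaction, and a control level is that of RNA recovered without IRP1, not of the tissue's total RNA.

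The TCA cycle oxidises acetyl-CoA in the mitochondrial matrix and passes the electrons to the respiratory chain. Citrate synthase (Cs) starts it, and isocitrate dehydrogenase, 2-oxoglutarate dehydrogenase, succinyl-CoA ligase, succinate dehydrogenase, fumarate hydratase and malate dehydrogenase follow. IRP1 binds iron-responsive elements (IREs), short RNA hairpins in mRNAs of iron metabolism, and when it carries an iron-sulfur cluster it is instead the cytosolic aconitase. Ferritin heavy chain (Fth1) and the transferrin receptor (Tfrc) are textbook IRE genes.

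Values are the deposited log2 signals, in which 1 unit is a factor of 2. Array medians ran from 5.50 to 5.62 and the arrays' standard deviations from 1.90 to 2.24. Duodenum averaged 13.5 over its enterocyte markers, liver 13.3 over hepatocyte markers and spleen 9.69 over lymphocyte markers. Bone marrow averaged 12.8 over neutrophil precursor genes and brain 10.1 over neuronal and glial genes. Some markers were also high elsewhere. The hepatocyte gene Apoa1 was at 13.7 in duodenum against 13.4 in liver, and Ttr at 13.7 in brain against 14.2 in liver. The enterocyte genes Apoa4 and Fabp2 were at 11.6 and 10.8 in liver, against 14.0 and 13.6 in duodenum. In brain the neuronal genes Snap25, Syt1 and Nefl were at 11.9, 12.1 and 12.0, whereas the glial gene Mbp was at 8.08 in brain against 9.18 in bone marrow, and the glial gene Gfap at 6.53 against 6.45 in liver. Acinar cells of the pancreas make digestive enzymes, and their markers averaged 13.7 in duodenum and 10.3 in spleen. All 5 that were measured exceeded log2 8 in duodenum, and all 5 did so in spleen. Hybridization controls of the second IRP1 and second control array of spleen lay 1.06 and 1.26 log2 units below the median array.

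The brightest probe set of each gene had a mean over the 20 arrays between 8.94 (Ogdh) and 12.7 (Mdh2). Over all 25 probe sets, 16 had a mean of at least log2 8 and 9 were dimmer, against 16.7% of all probe sets at or above 8. The log2 8 boundary was set after the values were seen. The Idh3b probe set 1441271_at and the Sucla2 probe sets 1447056_at and 1430402_at stayed under log2 6 in all 20 arrays. At the other end, 13 of the 500 values exceeded log2 13, nearest to the array maxima of 15.1 to 15.4. They belonged to Cs 1450667_a_at and to both Mdh2 probe sets, in 4 to 5 arrays each. All were from duodenum except Mdh2 1433984_a_at in the first control array of brain, at 13.2. Whether nearness to the top of the range affects the duodenal differences of Cs and Mdh2 was not tested.

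By their brightest probe sets all 10 genes were highest in duodenum. In control reactions, 20 of 25 probe sets were higher in duodenum than in the mean of the other 4 tissues (limma, adjusted p under 0.05), against 15.5% of all probe sets, and 0 were lower, against 18.6%. Of the 16 TCA probe sets with a mean of at least log2 8, 16 were higher and 0 lower. Of all 7538 at or above it, 2655 were higher and 1291 lower. The log2 8 boundary and the choice of the brightest probe set both use the mean over all 20 arrays, duodenum included. A probe set can therefore pass through a high duodenum level, so the counts of bright probe sets are no separate support for a duodenal excess. For duodenum the median difference was 1.28 log2 units over the 25 probe sets and 1.65 over the 10 brightest. It was -0.04 over all probe sets and 0.22 over those with a mean of at least log2 8. Bone marrow was the opposite: 17 of 25 probe sets were lower there, against 20.1% of all probe sets, and 0 were higher, against 15.0%. The brightest probe set of every gene was among the 17, with a median difference of -0.80. Of the 16 TCA probe sets with a mean of at least log2 8, 15 were lower in bone marrow and 0 higher. Of all 7538 at or above it, 2010 were lower and 2127 higher. In bulk RNA, fewer cells of a type and less RNA per cell cannot be told apart.

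The other tissues lay between. Spleen had 12 probe sets lower (16.3% of all) and 0 higher (19.5% of all). Liver had 7 lower (22.8% of all) and 3 higher (16.6% of all), and brain had 5 lower (25.3% of all) and 5 higher (19.6% of all). Of all 7538 probe sets with a mean of at least log2 8, 1133 were lower and 2630 higher in spleen. The counts were 3289 and 1322 in liver, and 2991 and 1663 in brain. An F-test for any difference between the 5 tissues called 22 of 25 probe sets, against 63.1% of all probe sets. It called 16 of the 16 TCA probe sets with a mean of at least log2 8, against 6789 of all 7538 at or above it. Of the 9 dimmer TCA probe sets it called 6, near the share of all probe sets. After quantile normalization the 10 brightest probe sets were still all above the other tissues in duodenum (median 1.15) and all below in bone marrow (median -0.71), while the median for brain went from -0.07 to 0.13. With IRP1 arrays in place of control arrays, 7 of 25 probe sets were called in bone marrow, of which 1 was higher. Of all 45037 probe sets, 16842 were called in the same comparison, both directions together, so the 7 were no excess of calls. The median of the 10 brightest was -0.24 with IRP1 arrays, with 7 negative and only Idh3b, Suclg1 and Fh1 called. Without the 2 spleen arrays with low hybridization controls, the median of the 10 brightest in spleen was -0.55, with 9 negative, against -0.51 with all arrays. The spleen count fell when either control array of spleen was left out. So did the bone marrow count without its first control array and the brain count without its second. Each of these fits left 1 control array in the tissue, and their counts are not set against those of all probe sets.

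**Figure D1:**
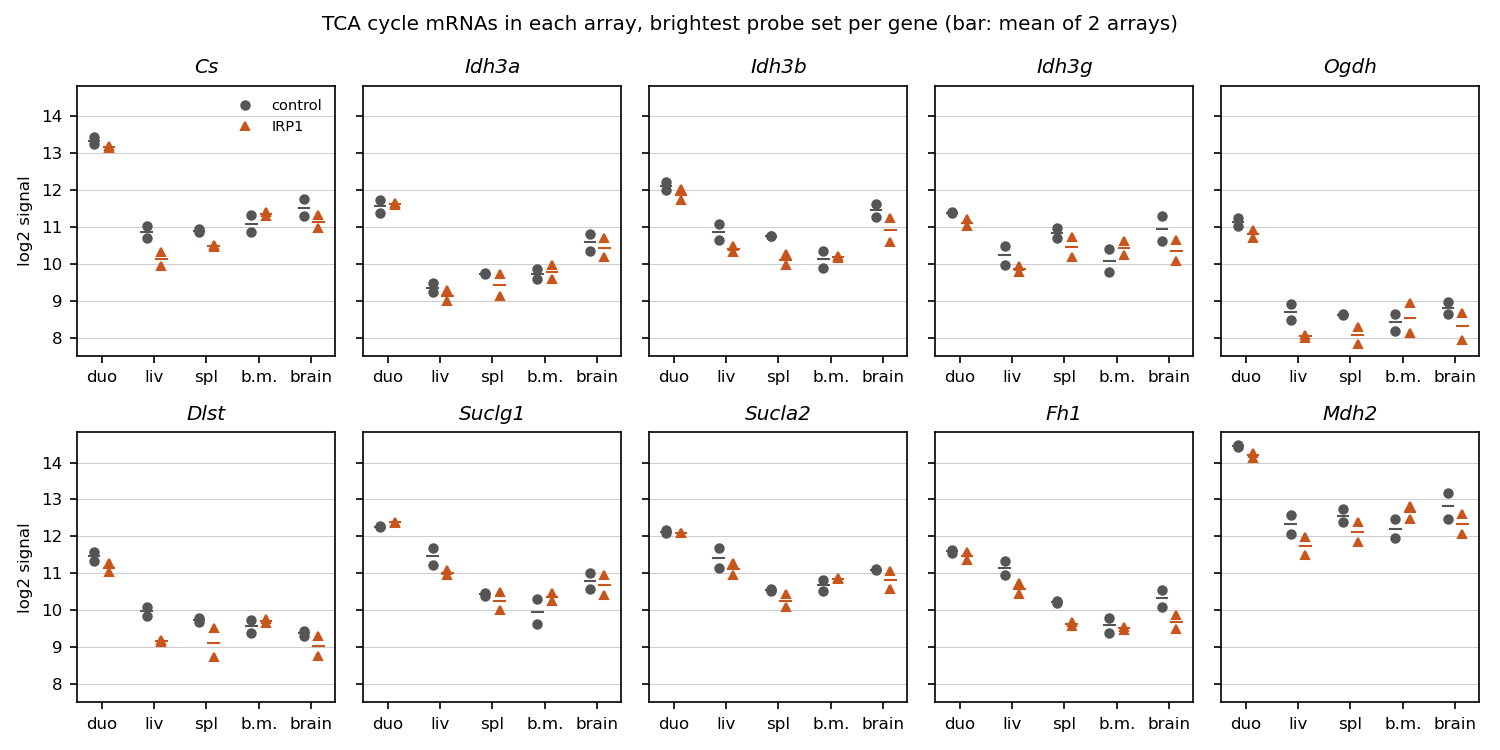
Log2 signal (vertical axis) of the brightest probe set of each gene in every array, by tissue (duo, duodenum; liv, liver; spl, spleen; b.m., bone marrow). Circles are the 2 control arrays, triangles the 2 IRP1 arrays and bars their means. Duodenum is highest in all 10 panels.

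Citrate synthase condenses acetyl-CoA with oxaloacetate. The brightest Cs probe set (1450667_a_at) read 13.4 and 13.2 in the control arrays of duodenum, 11.7 and 11.3 in brain, 10.9 and 11.3 in bone marrow, 10.9 and 10.9 in spleen, and 11.0 and 10.7 in liver. Duodenum stood clear of every other tissue, and the other 4 overlapped their neighbours in the order of means. Cs was 4.72-fold higher in duodenum than in the mean of the other tissues (2.24 ± 0.16 log2, SE; adjusted p = 9.4e-09).

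The 3 subunits of the NAD-dependent isocitrate dehydrogenase, encoded by Idh3a, Idh3b and Idh3g, shared the highest tissue but not the lowest. Idh3a (1432016_a_at) read 11.4 and 11.7 in duodenum, 10.3 and 10.8 in brain, 9.76 and 9.71 in spleen, 9.60 and 9.87 in bone marrow, and 9.48 and 9.23 in liver. Idh3b (1418885_a_at) read 12.2 and 12.0 in duodenum, 11.6 and 11.3 in brain, 11.1 and 10.6 in liver, 10.7 and 10.8 in spleen, and 9.90 and 10.4 in bone marrow. Liver was therefore lowest for Idh3a and bone marrow for Idh3b, in each case without overlap with the tissue next in order. Idh3g (1416788_a_at) had the smallest gap of the brightest probe sets between highest and lowest tissue, 1.30 log2 units, from 11.4 and 11.4 in duodenum to 9.77 and 10.4 in bone marrow. The duodenal excess was 1.70 ± 0.19 for Idh3a, 1.31 ± 0.18 for Idh3b and 0.85 ± 0.22 for Idh3g (log2, SE; adjusted p = 1.7e-06, 1.7e-05 and 0.00576).

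Ogdh and Dlst encode the decarboxylating and the succinyl-transferring subunits of the 2-oxoglutarate dehydrogenase complex. Ogdh (1451274_at) had the largest duodenal excess of the brightest probe sets. It read 11.2 and 11.0 in duodenum, whereas the 8 control values of the other tissues lay between 8.19 and 8.97 and overlapped from each tissue to the next, a difference of 2.50 ± 0.22 log2 units or 5.64-fold (adjusted p = 1.1e-07). Dlst (1423710_at) read 11.6 and 11.3 in duodenum, 10.1 and 9.85 in liver, 9.68 and 9.78 in spleen, 9.39 and 9.75 in bone marrow, and 9.44 and 9.31 in brain. Dlst was the only one of the 10 whose brightest probe set was lowest in brain, at -0.81 ± 0.19 against the other tissues (adjusted p = 0.00172), although spleen, bone marrow and brain overlapped in order.

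Suclg1 encodes the alpha subunit common to both succinyl-CoA ligases, and Sucla2 the beta subunit of the ADP-forming enzyme. Suclg1 (1415891_at) read 12.3 and 12.3 in duodenum, 11.7 and 11.2 in liver, 10.6 and 11.0 in brain, 10.4 and 10.5 in spleen, and 9.62 and 10.3 in bone marrow, with no overlap between neighbours. Sucla2 (1452206_at) read 12.2 and 12.1 in duodenum, 11.7 and 11.2 in liver, 11.1 and 11.1 in brain, 10.5 and 10.8 in bone marrow, and 10.6 and 10.5 in spleen. Bone marrow and spleen overlapped for Sucla2. The duodenal excess was 1.60 ± 0.19 log2 units for Suclg1 and 1.19 ± 0.16 for Sucla2 (adjusted p = 4.7e-06 and 1.8e-05).

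Fumarate hydratase (Fh1), which turns fumarate into malate, and the mitochondrial malate dehydrogenase (Mdh2), which returns malate to oxaloacetate, close the cycle. Fh1 (1424828_a_at) read 11.6 and 11.6 in duodenum, 11.3 and 10.9 in liver, 10.6 and 10.1 in brain, 10.2 and 10.3 in spleen, and 9.38 and 9.80 in bone marrow. Brain and spleen overlapped. Fh1 was 2.43-fold higher in duodenum (1.28 ± 0.16 log2, adjusted p = 7.9e-06) and also, with Suclg1, higher in liver (0.71 ± 0.16 for Fh1, adjusted p = 0.00215), a tissue in which the brightest probe sets of Cs, Idh3a, Idh3g and Mdh2 were lower than in the others. Mdh2 (1433984_a_at) read 14.5 and 14.4 in duodenum, above the log2 13 mark. Its other tissues overlapped one after another, from 13.2 and 12.5 in brain to 11.9 and 12.5 in bone marrow, and the duodenal excess was 1.97 ± 0.22 (adjusted p = 2.3e-06). Of the 10 brightest probe sets, bone marrow was lowest for 6, liver for 2, spleen for 1 and brain for 1.

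The genes followed each other across arrays to different degrees. Over 20 arrays, which share tissues and pooled RNA, the 45 pairs of brightest probe sets had Pearson correlations from 0.543 (Fh1 with Idh3a) to 0.972 (Mdh2 with Cs), with a median of 0.827. Among 16001 probe sets of other genes with a standard deviation of at least 0.5, the 5 closest to the mean profile of the 10 were Slc30a1, a zinc exporter (r = 0.974), Clcn2, a chloride channel (0.969), Coa3, a cytochrome oxidase assembly factor (0.969), Gpd2, the mitochondrial glycerol-3-phosphate dehydrogenase (0.969), and Pank3, a pantothenate kinase (0.968). These correlations are a description of 5 tissues and carry no p.

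Probe sets of the same gene did not always give the same tissue order. The brightest and second (1422578_at) Cs probe sets both had their highest mean in duodenum and the next in brain. Among the other tissues, which overlapped in order, liver was lowest for the brightest and bone marrow for the second. Cs 1422577_at was lowest in brain, at 6.88 and 6.89 against 10.6 and 10.3 in duodenum. Its difference for brain was -2.15 ± 0.14 log2 units (SE; adjusted p = 1.2e-09). In liver the same probe set was higher than in the other tissues (0.56 ± 0.14, adjusted p = 0.00454), whereas the brightest was lower. Idh3a had 2 probe sets that were highest in brain instead of duodenum. Idh3a 1422500_at read 8.15 and 8.91 in brain and 6.99 and 7.30 in duodenum, a brain excess of 2.43 ± 0.18 (adjusted p = 4.7e-09), and Idh3a 1422501_s_at had a brain excess of 1.54 ± 0.18 (adjusted p = 2.0e-06). The latter is an s_at probe set, a type that may read related transcripts. Idh3a 1447701_x_at differed by at most 0.24 in either direction in any tissue and passed no test.

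The 3 dimmer Dlst probe sets were also less alike. Dlst 1437775_at and 1430161_at had their highest means in spleen (7.35 and 6.52), and neither was called higher in any tissue. Dlst 1431011_at was highest in duodenum, by 0.73 ± 0.14 (adjusted p = 5.6e-04). The second probe sets of Idh3b, Idh3g, Ogdh and Mdh2 had correlations with the mean profile of the 10 genes of 0.875, 0.808, 0.953 and 0.969, whereas Dlst 1430161_at, Sucla2 1430402_at and Idh3a 1447701_x_at had 0.142, 0.166 and -0.09. Which transcript each probe set reads was not examined.

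**Figure D2:**
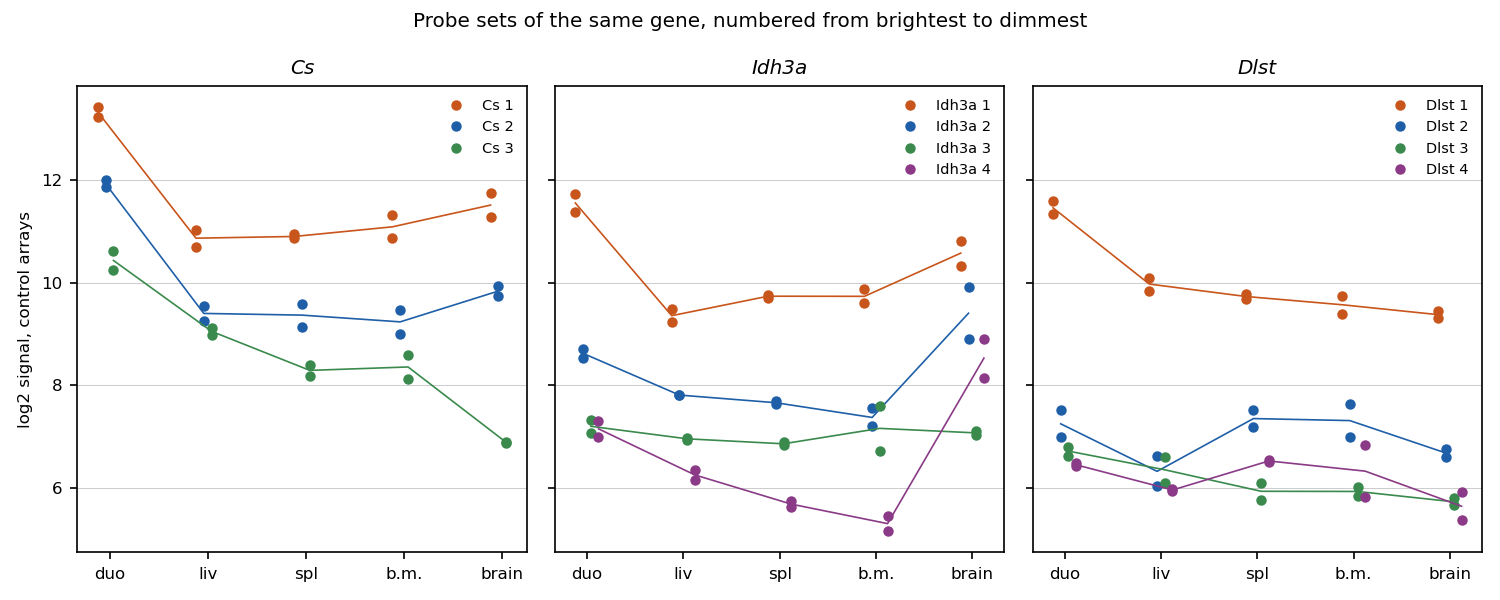
Log2 signal (vertical axis) of every probe set of Cs, Idh3a and Dlst in the 2 control arrays of each tissue, with lines through the means. Probe sets are numbered from brightest to dimmest: Cs 3 (1422577_at) drops to 6.88 in brain, while Idh3a 2 (1422501_s_at) and Idh3a 4 (1422500_at) peak there.

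Other genes of the pathway were also higher in duodenum. Of the rest of the cycle, 6 of 6 measured genes were called higher in duodenum by their brightest probe set (Sdha, Sdhb, Sdhc, Sdhd, Dld and Suclg2), the largest being Sdhd, a membrane anchor of succinate dehydrogenase, at 5.30-fold, followed by Sdhb, its iron-sulfur subunit, at 3.33-fold. Of the genes that bring pyruvate into the cycle, 5 of 5 were higher, led by Dlat (3.68-fold) and Pdha1 (2.88-fold), subunits of the pyruvate dehydrogenase complex. Of related enzymes outside the cycle, 4 of 5 were higher, led by Idh1 (3.80-fold) and Mdh1 (1.93-fold), while the mitochondrial aspartate aminotransferase Got2 was at -0.34 ± 0.18 (adjusted p = 0.164). Over all probe sets 15.5% were called higher in duodenum. In liver 3 of 6, 2 of 5 and 4 of 5 genes of these lists were called higher, against 16.6% of all probe sets. The median differences of the lists were 0.60, 0.43 and 1.17 log2 units in liver and 1.63, 0.68 and 0.74 in duodenum. In bone marrow 6 of 6, 4 of 5 and 4 of 5 genes of these lists were lower, against 20.1% of all probe sets. The acinar, enterocyte and smooth muscle markers also peaked in duodenum, the last at 8.77 against 5.82 to 6.83 elsewhere, and their part in the duodenal levels was not tested.

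Promoters were examined because the genes moved together across tissues. RefSeq promoter windows (GRCm38.p6, 250 bases before to 50 after a start) existed for 9 of the 10 genes, all but Idh3a, with 6 windows for Ogdh. The motif CGGAAG, the core bound by ETS factors such as GABPA, was searched on both strands and lay in a window of 6 of the 9 genes and in 8 of their 14 windows, against 16.9% of all 32851 windows. The 6 sites are shown as 30 bases on the gene's strand, 5′ to 3′, with the motif or its reverse complement in capitals, so that its place and flanks can be compared. The motif starts 5 bases before the start of Idh3b, 103 before Idh3g, 175 before an Ogdh start, at base 2 of Dlst, 155 before Fh1 and 177 before Mdh2.
Idh3b, chr2:130284439-130284468, minus strand: cgaccgcgctcgCTTCCGgcgtcacttccc
Idh3g, chrX:73786983-73787012, minus strand: tgctctaggcacCGGAAGggggcgtaagaa
Ogdh, chr11:6291410-6291439, plus strand: cttaacaagcttCGGAAGcgtctcccgtgt
Dlst, chr12:85110822-85110851, plus strand: cggccggtctcaCTTCCGgttgctgccggg
Fh1, chr1:175625773-175625802, minus strand: ttcccatgattcCTTCCGcactagtttccc
Mdh2, chr5:135778460-135778489, plus strand: ctcgcgagatctCGGAAGtggccggagccc
GCATGCGC, a core of the site of NRF1, a regulator of nuclear genes for mitochondrial proteins, and AAGGTCA, a half-site of estrogen-related receptors, were searched on both strands. GCATGCGC lay in 2 of the 14 windows and AAGGTCA in 1 of 14, against 2.71% and 4.72% of all windows. These windows all belonged to Ogdh, which had 6 of the 14. Cs, Suclg1 and Sucla2 held none of the 3 motifs. CAGTG, the loop letters of an IRE, was searched on the gene's strand in the first 50 bases after each start. It was found in 0 of the 14 windows of the 9 genes, against 7.2% of all windows, and 14 windows are few for such a share. A match or its absence describes the letters in these windows only.

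The comparison the study was built on is IRP1 against control within a tissue. None of the 25 probe sets passed in any tissue: 0 of 25 were called by limma in duodenum (0.104% of all probe sets called), in liver (0.184%), in spleen (0.102%), in bone marrow (0.131%) and in brain (0.124%). At an unadjusted p under 0.05 the counts were 1, 8, 8, 0 and 4, against 4.08%, 13.5%, 9.52%, 4.99% and 6.57% of all probe sets. Among the 16 TCA probe sets with a mean of at least log2 8 they were 1, 6, 7, 0 and 4. The shares of all probe sets at or above log2 8 were 5.80%, 24.3%, 17.8%, 5.78% and 8.20%. IRE genes gave the scale: by their brightest probe sets 2 of 6 were called higher in duodenum, 3 in liver, 1 in spleen, 6 in bone marrow and 3 in brain. With 2 arrays a group the 95% intervals were wide. In the deposited values their highest upper bound among the 10 brightest probe sets was 1.56-fold in duodenum, 1.22-fold in liver, 1.27-fold in spleen, 2.06-fold in bone marrow and 1.31-fold in brain. Over all 25 it was 2.26-fold, 1.97-fold, 1.79-fold, 2.06-fold and 1.63-fold. The highest of these belonged to Idh3a 1422501_s_at in duodenum, which read 9.29 and 9.32 with IRP1 against 8.71 and 8.53 without (0.68 ± 0.23, adjusted p = 0.911). An F-test of differences between tissues in IRP1 minus control called 0 of 25, against 0.0111% of all probe sets, with 1 at an unadjusted p under 0.05, against 4.83% of all probe sets.

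The small differences were mostly negative outside bone marrow. Both IRP1 arrays lay below both controls for 9 of 25 probe sets in duodenum (21.6% of all probe sets), 14 in liver (26.0%), 16 in spleen (22.1%), 0 in bone marrow (11.8%) and 9 in brain (16.9%). Both lay above both controls for 3 in duodenum (16.6%), 2 in liver (19.2%), 2 in spleen (17.6%), 8 in bone marrow (19.0%) and 0 in brain (16.7%). Spleen and liver thus had the most TCA probe sets below their controls. In bone marrow most overlapped, and those that did not were above. These shares are not matched for brightness. Of all 7538 probe sets with a mean of at least log2 8, 4070 were negative in duodenum, 6236 in liver and 5945 in spleen. In bone marrow 1521 were negative and in brain 5899. Of the 16 TCA probe sets at or above it, 13, 15, 16, 1 and 15 were negative in the same order.

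Averaged over the 5 tissues, Fh1 was the 1 of 25 probe sets called, and it was lower with IRP1, against 1.03% of all probe sets called lower and 0.773% called higher. Of all 7538 probe sets with a mean of at least log2 8, 236 were called lower and 117 higher. Fh1 read 11.4 and 11.6 with IRP1 against 11.6 and 11.6 without in duodenum, 10.4 and 10.7 against 11.3 and 10.9 in liver, 9.57 and 9.68 against 10.2 and 10.3 in spleen, 9.55 and 9.47 against 9.38 and 9.80 in bone marrow, and 9.50 and 9.88 against 10.6 and 10.1 in brain. The mean difference was negative in 5 of 5 tissues, and the arrays did not overlap in liver, spleen and brain. It amounted to -0.40 ± 0.09 log2 units (SE; 95% interval -0.60 to -0.21; adjusted p = 0.0388), that is 1.32-fold lower. The call was close to the threshold: it was lost when 13 of the 20 arrays were left out singly (adjusted p 0.0190 to 0.106 over all 20) and after quantile normalization (-0.27, adjusted p = 0.0564), with the replicate number as a block (adjusted p = 0.0671), and also without both spleen arrays with low hybridization controls (-0.40, adjusted p = 0.101). It held without the second IRP1 array of duodenum, liver, spleen or brain, the second control array of liver or brain, or the first control array of bone marrow. The number of called probe sets rose to 5 without the second IRP1 array of brain and to 4 without the first control array of bone marrow.

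The other 9 genes were not called, and all were negative by their brightest probe set. Dlst was at -0.39 ± 0.11 log2 units (SE), Ogdh at -0.38 ± 0.12, Idh3b at -0.36 ± 0.10, Cs at -0.28 ± 0.09, Mdh2 at -0.26 ± 0.13, Idh3g at -0.26 ± 0.12, Sucla2 at -0.14 ± 0.09, Idh3a at -0.11 ± 0.11 and Suclg1 at -0.04 ± 0.11, with adjusted p from 0.0723 for Dlst to 0.894 for Suclg1. The median of the 10 was -0.27, against -0.0056 over all probe sets and -0.12 over all probe sets with a mean of at least log2 8. The 9 probe sets under log2 8 had a median of 0.02, with 4 negative and 5 positive. They ran from -0.36 ± 0.13 for Dlst 1437775_at to 0.19 ± 0.08 for Dlst 1431011_at (adjusted p = 0.190 and 0.243). Of the 16 brighter ones Idh3a 1422501_s_at alone was positive, at 0.23 ± 0.10 (adjusted p = 0.273). In the deposited values the highest upper bound of the 95% intervals was 1.37-fold for the 25 and 1.14-fold for the 10 brightest. After quantile normalization the highest difference of the 10 brightest was 0.10 ± 0.09 (SE), for Suclg1. For the 25 it was 0.31 ± 0.11, for Idh3a 1422501_s_at, so the bounds depend on the normalization. All 6 IRE genes were called higher in the same contrast, from 1.78-fold for Fth1 and 2.54-fold for Epas1, a hypoxia-inducible factor, to 4.58-fold for Tfrc and 4.65-fold for Alas2, the erythroid enzyme of haem synthesis.

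**Figure D3:**
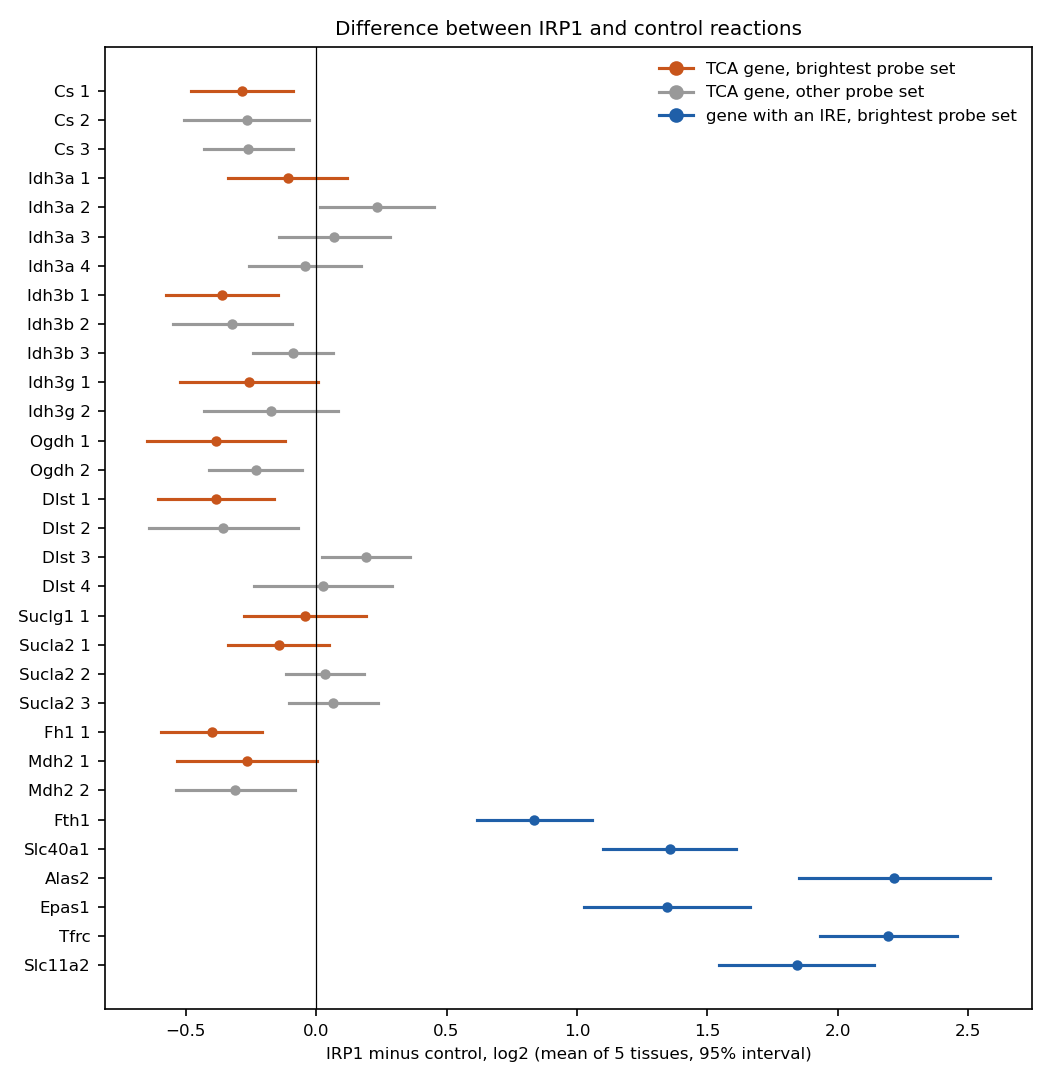
IRP1 minus control in log2 units, averaged over the 5 tissues, with 95% intervals from limma (horizontal axis), for the 25 TCA probe sets, numbered from brightest to dimmest within a gene, and for the brightest probe set of 6 IRE genes. The TCA intervals end at or below 1.37-fold, and all 6 IRE genes lie above them, from 1.78-fold upwards.

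Bright probe sets in general differed between the reaction means, and the width of the signal distribution differed with them. The median IRP1 minus control difference of the 10 brightest TCA probe sets was -0.20 in duodenum, -0.51 in liver, -0.43 in spleen, 0.16 in bone marrow and -0.43 in brain. Over all 7538 probe sets with a mean of at least log2 8 it was -0.02, -0.31, -0.24, 0.17 and -0.20 in the same order. The standard deviation over all probe sets of an array differed between IRP1 and control arrays by -0.00017, -0.12, -0.10, 0.07 and -0.09. In liver it was 1.90 and 1.95 with IRP1 against 2.11 and 1.99 without, and in spleen 2.01 and 2.18 against 2.16 and 2.24. In bone marrow it was 2.17 and 2.22 against 2.05 and 2.18, and in brain 1.98 and 2.10 against 2.16 and 2.11. The first IRP1 arrays of spleen and brain and the first control array of bone marrow were thus the lowest of their tissues. Whether the reaction or single arrays set these differences was not tested. After quantile normalization, which gives every array the same distribution, the medians of the 10 were -0.10, -0.11, -0.20, -0.03 and -0.16, and those of all bright probe sets lay between -0.04 and -0.0077. The mean over tissues was then -0.13 for the 10, of which 7 were negative; Idh3a, Suclg1 and Sucla2 had turned to 0.0092, 0.10 and 0.0029.

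**Figure D4:**
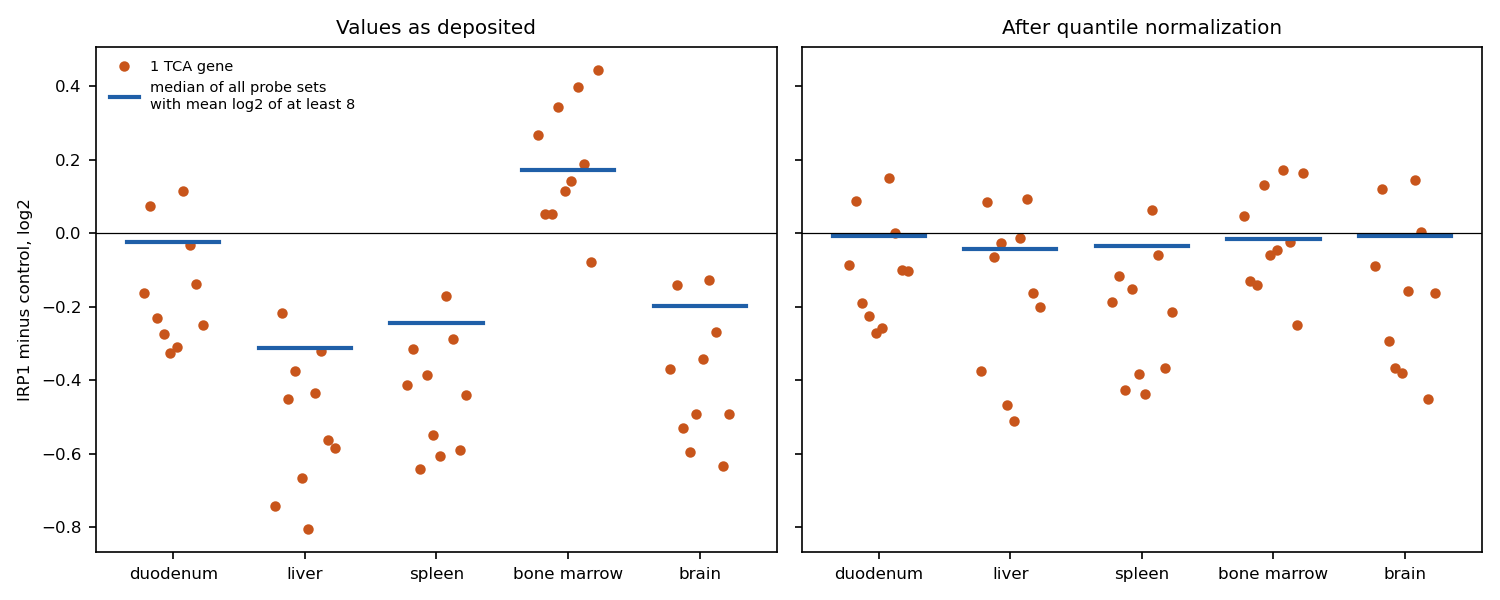
IRP1 minus control in log2 units (vertical axis) for the brightest probe set of each of the 10 genes (points) in each tissue, in the deposited values (left) and after quantile normalization (right). The blue bar is the median of all probe sets with a mean of at least log2 8: on the left it lies at -0.31 in liver and 0.17 in bone marrow, and on the right it lies between -0.04 and -0.0077.

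Neighbouring enzymes had small differences of the same order. In the mean over tissues, 1 of 6 measured genes of the rest of the cycle was called, and it was lower: Sdhb at -0.54 ± 0.13 log2 units (SE; adjusted p = 0.0485), followed by Sdha, the flavoprotein subunit, at -0.40 ± 0.11 (adjusted p = 0.0821). Of the 5 genes of pyruvate entry 0 were called, with Pdha1 at -0.33 ± 0.11 and Dlat at 0.23 ± 0.09. Of the 5 related enzymes 0 were called, with Got2 at -0.38 ± 0.10 and the cytosolic aminotransferase Got1 at -0.32 ± 0.12. The medians of these lists were -0.12, -0.13 and -0.19.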

How the data were processed

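RNA recovered in 20 reactions was measured on Affymetrix whole-genome mouse arrays. The authors deposited log2 signals in 1 table. The series' design text and the submitters' processing notes name RMA and, as the other method, MAS5 from GCOS with quantile normalization, and which of them gave this table is not given in the sources used here. Genes were named through the platform annotation; the 932 probe sets with several symbols name no gene. The members and lists were chosen with earlier results of these data known. limma 3.58.1 in R 4.3.3 was fitted to all 20 arrays in 10 groups and 45037 probe sets, with two-sided tests, Benjamini-Hochberg adjustment within each comparison, and a call at adjusted p under 0.05. The fit was tested on simulated data. Every probe set of the 10 genes is accounted for, and a gene is represented by its brightest; other pathway genes are named if called, or else the largest changes of a list. No probe was left out as dim. Precision is limited by 2 arrays a group.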

Additional observations from a re-analysis of the deposited data

How the results depend on the processing

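Quantile normalization, median centring, a floor or filter at log2 6, array weights, leaving out the 2 spleen arrays with low hybridization controls, a replicate block, only the arrays of a comparison, and leaving out s_at and x_at probe sets were tried. In liver 1 probe set was called after quantile normalization and 1 with the floor, both times Ogdh 1445632_at (-0.79, adjusted p = 0.0456, and -0.75, with an adjusted p just under 0.05). For the mean of tissues 0 were called after quantile normalization and 0 with the replicate block (Fh1 adjusted p = 0.0671). Same-numbered deviations correlated at -0.07 in liver, -0.04 in bone marrow, 0.12 in brain, 0.27 in duodenum and 0.53 in spleen, so not every tissue was over 0.1 and the numbers were not taken as pairs; in spleen both arrays numbered 2 had low hybridization controls. Without the 2 low arrays, 4 probe sets were called in spleen level, Fh1 lost its call (adjusted p = 0.101) and Dlst gained one (0.0485). With IRP1 arrays 7 were called in bone marrow level, against 16842 of all 45037 probe sets. Quantile normalization reversed Idh3a to 0.0092, Suclg1 to 0.10 and Sucla2 to 0.0029. Leaving out single arrays, where a lone array is taken to vary like the others, gave 0 to 5 calls in the mean of tissues, 3 to 13 in spleen level, 8 to 19 in bone marrow level, 5 to 10 in brain level, and -0.11 to 0.025 for Suclg1. The cause of these changes was not tested. Dim probe sets and values over log2 13 limit what a difference can show.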
